A study of Mus musculus with 18 samples.

Results

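A pair of mouse embryonic fibroblast (MEF) lines were compared before either had been induced, one carrying an activator and one carrying a repressor. Fibroblasts are the connective-tissue cells that make most of the extracellular matrix. Each line holds a doxycycline-inducible dCas9, a Cas9 that finds a chosen DNA sequence without cutting it. In the activator line dCas9 is joined to VPR, and in the repressor line to KM, which the labels call a transcriptional repressor. Both effectors were aimed at the MSR, the major satellite repeat. The comparison used 6 of the 18 libraries of the study, chosen by their labels alone: 3 of the uninduced activator line and 3 of the uninduced repressor line, all grown without doxycycline, in medium with hygromycin and serum free of tetracycline. Beside them stand the 3 uninduced libraries of a control line with dCas9 and no effector. In one comparison the induced libraries of both effector lines were used, 3 after 10 ng/ml doxycycline for 6 h in the activator line and, in the repressor line, 3 after 24 h at 100 ng/ml. The labels do not say whether a line is a clone or a pool, which promoter drives dCas9, or whether libraries of a group came from separate cultures. The spread behind every p-value is therefore that of the libraries, possibly a technical one, and the effector cannot be told apart from any other difference between the lines.

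Major satellite is a tandem repeat that fills the heterochromatin beside mouse centromeres, where it is normally transcribed at a low level. VPR is a fusion of activation domains, one of them from p65, the product of Rela. A leaky inducible promoter can leave some effector in cells that were never induced, which is a known limit of such systems and was not measured by these files. The repeat unit is shown because it is the target of both effectors. It was taken from the transcript model of Gm26870, a lincRNA at chr9:3000282-3038313 (GRCm38), in the GENCODE M21 transcripts. Bases 1 to 234 of that transcript are printed in lower case, and they are 97.4% identical to the 234 bases that follow.
major satellite unit in Gm26870: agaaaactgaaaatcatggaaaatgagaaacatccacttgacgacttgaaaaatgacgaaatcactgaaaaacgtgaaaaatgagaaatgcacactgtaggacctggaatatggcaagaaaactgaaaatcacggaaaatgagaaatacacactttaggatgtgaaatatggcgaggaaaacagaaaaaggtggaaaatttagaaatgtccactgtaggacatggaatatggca

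The target was read through the 13 gene models that consist mainly of this repeat. Their summed level was 31.3, 30.2 and 33 CPM, counts relative to the effective library size, in the uninduced activator libraries. In the repressor libraries it was 6.41, 5.5 and 5.92 CPM. All 3 activator libraries were above all 3 repressor libraries, and the 3 control libraries, at 7.34, 7.86 and 5.83 CPM, lay beside the repressor line. The log2 difference between activator and repressor line was 2.40 (SE 0.24), a 5.29-fold higher level, and the edgeR quasi-likelihood fit gave an adjusted p of 6e-06. An exact two-sided permutation test gave 0.1, the smallest p that 3 libraries against 3 allow. Of the models, Gm10800, with 1250 counts in the activator libraries and 222 in the repressor libraries, had the most counts. Gm26870 had 186 counts in the activator libraries and 1 in the repressor libraries. Besides these, Gm10801, Gm10722, Gm21738 and Gm17535 were called higher, with adjusted p-values of 0.0272, 0.0221, 0.0269 and 0.0213. Each of those 4 calls was lost in at least 4 of the 6 fits that left out 1 library. Because these models repeat almost the same sequence, a read can fall to one or another depending on the alignment, and single members are uncertain. Several passed the low-count filter only through the induced activator libraries, and Gm10720 had no count in any of these 6 libraries. Rela stood at 67.7 ± 1.19 CPM in the activator line and 67.9 ± 1.58 in the repressor line, where values after ± are SD over n = 3 libraries here and throughout. Whether reads from the p65 part of VPR were counted as Rela is not known, so these levels do not measure the effector.

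Across the 16216 genes tested, 1574 were higher in the activator line (9.71%) and 1853 were lower (11.4%), which is 21.1% in all at an adjusted p under 0.05. Before adjustment, 5043 genes had a p under 0.05. Differences were mostly small: 3085 of the 3427 called genes differed by under 1.5-fold, and their median absolute log2 difference was 0.202. The median over all tested genes was 0.0003. At least 2-fold differences were found for 64 genes that were higher and 67 that were lower, together 131 or 0.808% of the genes tested. Of these, 79 stayed under 1 CPM in both lines, and 11 reached 5 CPM in one of them. The size class depends on the method: DESeq2 called 24 and 13 genes at least 2-fold higher and lower, and a filter at a mean of 1 CPM left 19 and 18. Depth ran from 16006476 to 25262912 counts over the 6 libraries. The first principal component of their log2 CPM held 70.7% of the variance and separated the lines. Activator libraries 1 and 2 differed from each other most among replicate pairs, with a chi-square per degree of freedom of 3.31 over genes, and no pair agreed within sampling noise.

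**Figure D1:**
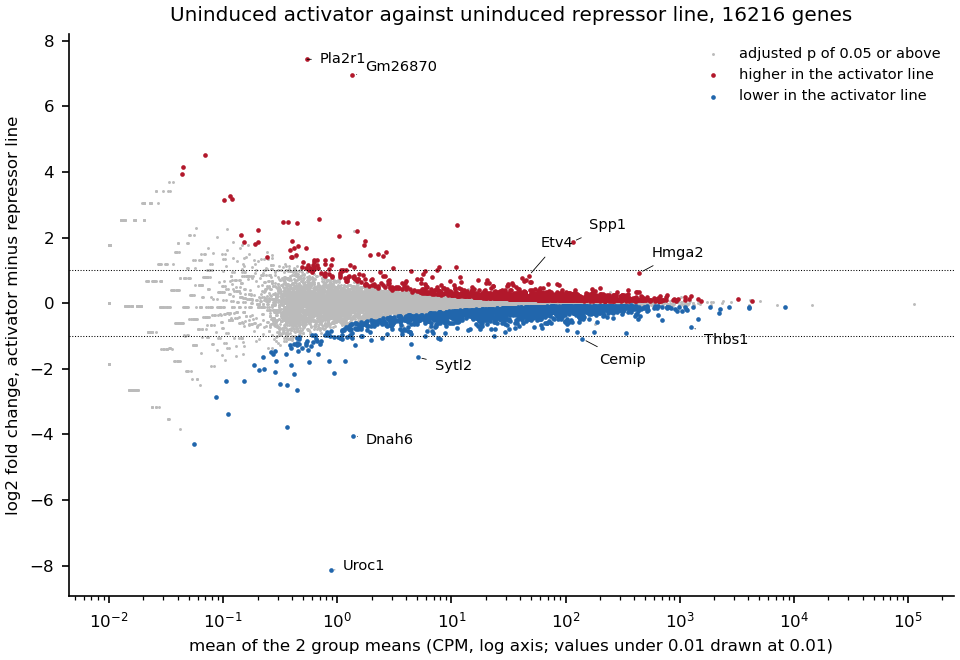
Log2 fold change (uninduced activator minus repressor line) of 16216 tested genes against the mean of the 2 group means in CPM on a log axis; red and blue points passed an adjusted p of 0.05, grey points did not, and dotted lines mark 2-fold. Most coloured points lie inside the dotted lines, and most points outside them lie at low CPM.

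The leading genes were chosen among called genes with at least 5 CPM, symbols other than clone names and no overlap between the groups. Groups without overlap were found for 35.8% of all tested genes. Under these limits Spp1 had the largest log2 difference of those higher in the activator line. Spp1 (ENSMUSG00000029304.14, chr5:104435118-104441050, GRCm38) encodes osteopontin, a secreted matrix phosphoprotein. Its level was 175, 179 and 188 CPM in the activator libraries against 50.9, 47.3 and 49.9 CPM in the repressor libraries. The control line had 64.4, 60.1 and 65.6 CPM. The control line lay near the repressor line, and the difference was 3.66-fold (log2 1.87, SE 0.04, adjusted p 6.87e-59). Hmga2 (ENSMUSG00000056758.14, chr10:120361275-120476469), a chromatin architectural protein of embryonic cells, had 579, 570.5 and 575 CPM in the activator libraries. In the repressor libraries it had 309, 304 and 303 CPM, a log2 difference of 0.91 (SE 0.03, adjusted p 6.08e-44). Control libraries were between both at a mean of 363 CPM.

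Other genes that led the higher side were expressed at lower levels. Cubn, the endocytic receptor cubilin, had 15.2 ± 0.281 against 6.96 ± 0.723 CPM. Tmem171 had 10.7 ± 1.53 against 4.87 ± 0.782 CPM. Pkp1, a plakophilin of the desmosomes that join epithelial cells, had 10 ± 0.533 against 4.98 ± 0.572 CPM. Sox9, the transcription factor of cartilage and many progenitor cells, had 5.82 ± 0.432 against 2.96 ± 0.461 CPM. Synm, the intermediate filament protein synemin, had 7.75 ± 0.712 against 3.89 ± 0.585 CPM. Tnfaip2, named for its induction by TNF, had 7.31 ± 0.366 against 3.95 ± 0.526 CPM. Etv4, an ETS transcription factor induced by FGF and ERK signals, is described with the ERK genes. Log2 differences of these genes ran from 0.83 for Etv4 to 1.11 for Cubn and Tmem171. That their groups did not overlap was a condition of the choice.

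On the lower side, under the same limits, Sytl2 had the largest log2 difference, and Cemip was the most abundant of the 10 leading genes. Sytl2 (ENSMUSG00000030616.15, chr7:90302252-90410719) encodes a vesicle docking protein that binds Rab27. It had 2.53, 2.07 and 2.85 CPM in the activator libraries against 7.24, 7.78 and 8.03 CPM in the repressor libraries. The log2 difference was -1.65 (SE 0.14, adjusted p 3.92e-17). Here the control line, at 2.05, 2.3 and 2.75 CPM, lay beside the activator line, so the repressor line was the one that stood apart. Cemip (ENSMUSG00000052353.13, chr7:83932857-84086502), which takes part in the breakdown of hyaluronan, showed the reverse. It had 86.5, 92.6 and 90.5 CPM in the activator libraries, 194, 192 and 185 in the repressor libraries and 168, 172 and 166 in the control libraries. Its log2 difference was -1.08 (SE 0.03, adjusted p 2.84e-46).

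The other genes leading the lower side had roles from adhesion to lipid metabolism. Pkhd1l1, a large transmembrane protein, had 5.15 ± 0.901 against 10.8 ± 1.04 CPM. Fat4 and Dchs2 belong to the families of giant cadherins that act in planar cell polarity, and had 16 ± 2.63 against 31.6 ± 1.82 and 6.12 ± 0.434 against 11.5 ± 0.136 CPM. Itga1, the collagen-binding integrin alpha 1, had 4.8 ± 0.509 against 9.02 ± 0.387 CPM. Dhrs3, which reduces retinaldehyde to retinol, had 2.64 ± 0.302 against 6.15 ± 0.429 CPM. Lpin1, a phosphatidate phosphatase, had 3.95 ± 0.575 against 7.77 ± 0.432 CPM, and smooth muscle Actg2 had 3.09 ± 0.484 against 5.77 ± 0.732 CPM. Fdps is described with cholesterol synthesis. Measured as a difference of CPM, the abundant genes that led included Thbs1, Col1a1, Scd2 and Col1a2 on the lower side and Hmga2, Eef2 and Eef1a1 on the higher side. Col1a1, the main collagen chain, was 8050.3 ± 103 against 8682 ± 57.9 CPM, a log2 difference of only -0.11 (adjusted p 0.000208). Eef1a1, a translation elongation factor, was 4450.5 ± 12.7 against 4229 ± 51.9 CPM (adjusted p 0.0177), a call lost when repressor library 2, repressor library 3 or activator library 1 was left out.

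A few genes were found in one line and were nearly absent from the other. Pla2r1 (ENSMUSG00000054580.14, chr2:60417543-60553308), the phospholipase A2 receptor, had 0.996, 0.951 and 1.34 CPM in the activator libraries and no count in the 3 repressor libraries. The control line had 0, 0.0434 and 0.0656 CPM. Its 71 counts against 0 make it at least 21.7-fold higher, with a floor of 3 counts over the repressor group. Uroc1 (ENSMUSG00000034456.15, chr6:90333284-90364551), the liver enzyme urocanase, was the mirror image. It had no count in the activator libraries and 1.57, 1.74 and 1.95 CPM in the repressor libraries, at least 38.9-fold lower in the activator line by the same floor. The control libraries had 0, 0 and 0.262 CPM. The next gene with no count in one line, Gm1070, averaged 0.139 CPM in the activator line.

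Dnah6 and Ano3, picked out after their values were seen, behaved like Uroc1. Dnah6 (ENSMUSG00000052861.13, chr6:73017606-73221651), an axonemal dynein heavy chain of cilia, had 0, 0.165 and 0.364 CPM in the activator libraries. In the repressor libraries it had 2.55, 2.64 and 2.55 CPM, a log2 difference of -4.05 (SE 0.37, adjusted p 3.37e-15). Ano3 (ENSMUSG00000074968.11, chr2:110655201-110950923), a membrane protein of the anoctamin family, had 3 counts in the activator line and 42 in the repressor line. The ratio of its levels was 15.3, with an exact 95% interval from 4.88 to 77 that covers counting error only. For Dnah6 and Ano3 the control line averaged 0.031 and 0.0754 CPM, so the repressor line was the one that departed. All 4 genes kept this pattern between the induced libraries of the same lines. Pla2r1 averaged 1.38 CPM in the induced activator and 0 in the induced repressor libraries, Uroc1 0.0576 and 1.32, Dnah6 0.113 and 2.22, and Ano3 0.0733 and 0.616. These 4 genes tell the lines apart whether or not they were induced.

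**Figure D2:**
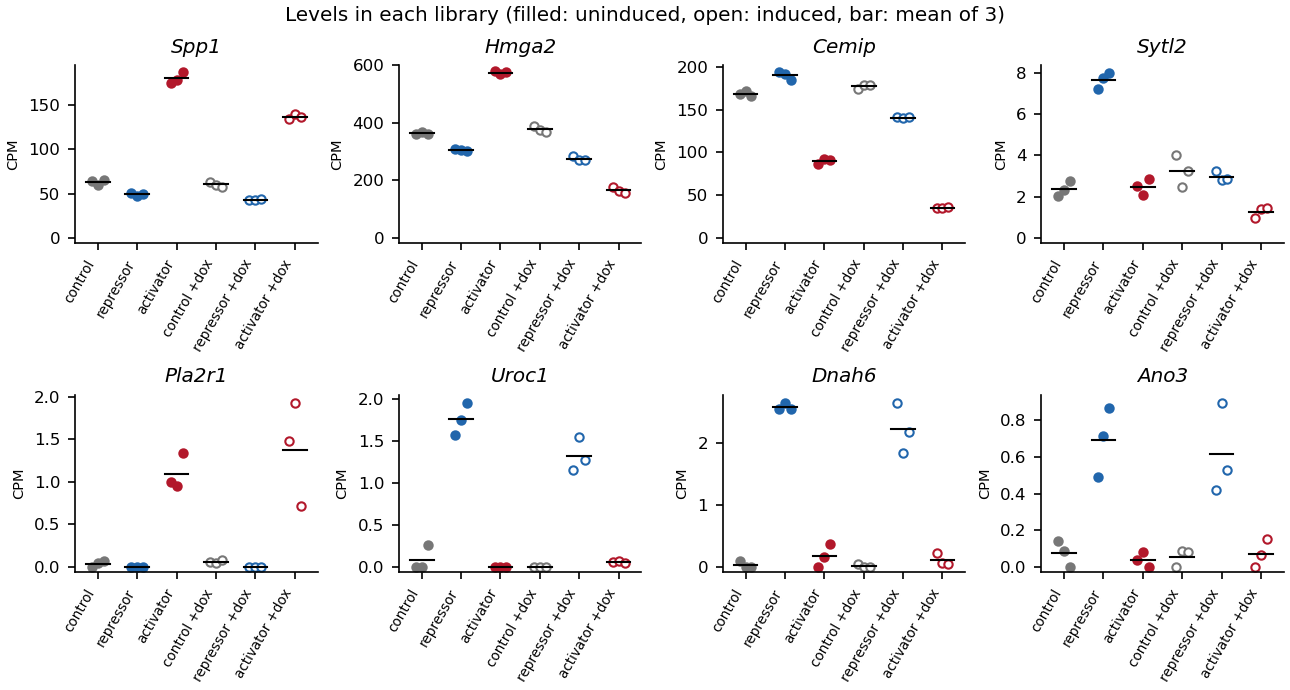
CPM of 8 genes in each of the 18 libraries, 3 per group, on axes that start at 0; filled points are uninduced, open points induced (+dox), and bars are means. Spp1 is high in the activator line in both states, Sytl2 is highest in the uninduced repressor libraries, and Pla2r1, Uroc1, Dnah6 and Ano3 each mark 1 line in both states.

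Genes of cholesterol synthesis and uptake were mostly lower in the activator line. Animal cells build cholesterol from acetyl-CoA through mevalonate, farnesyl diphosphate and squalene, and the transcription factor SREBP-2, the product of Srebf2, switches the pathway on when sterol is low. Of 31 tested members, 27 were lower in the activator line, 1 was higher and 3 were not called, so 90.3% were called beside 21.1% of all genes. The median log2 difference was -0.543, beside 0.0003 over all genes. The 27 genes lay between -0.07 for Acaca, whose call was lost without any 1 of the 6 libraries, and -1.06 for Fdps. Among the called members the control line was nearer to the repressor line in 27 of 28.

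At the entry of the pathway, Hmgcs1, which makes HMG-CoA, had 129, 123 and 127 CPM in the activator libraries against 228, 230.5 and 238 CPM in the repressor libraries. Its log2 difference was -0.88 (SE 0.04, adjusted p 6.06e-26). Every activator library was below every repressor library. The next steps to isoprenoid units were lower too, with log2 differences of -0.56 for Mvk, -0.60 for Pmvk, -0.80 for Mvd, -0.89 for Idi1 and -1.06 for Fdps. Fdps, the farnesyl diphosphate synthase, had 4.94 ± 0.0723 against 10.3 ± 0.0432 CPM. It has near-identical pseudogene copies that may share its reads, so its level is uncertain.

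From squalene to cholesterol, Sqle, the squalene epoxidase, had 150.4 ± 5.52 against 224 ± 4.81 CPM (log2 -0.58). Fdft1, Lss, Cyp51, Msmo1, Nsdhl, Hsd17b7, Sc5d and Dhcr7 were lower by between 0.37 and 0.81 on the log2 scale. Ebp, the sterol isomerase of the same branch, was not called at 28.9 ± 0.219 against 28.5 ± 1.66 CPM. Of the regulators, Srebf2 had 276 ± 2 against 349 ± 2.55 CPM (log2 -0.34), and Insig1, which holds SREBP back in the endoplasmic reticulum, had 58.7 ± 3.96 against 89.6 ± 2.87 CPM. Srebf1, the fatty acid counterpart, was the 1 gene called higher, at 73.4 ± 0.89 against 68.3 ± 0.802 CPM (adjusted p 0.034). That call was lost in 7 of the alternatives, 5 of them fits without 1 library. Stard4, which carries sterol between membranes, was also lower and had 111 ± 2.31 against 156 ± 3.57 CPM. Abca1, which exports cholesterol, was not called (13.5 ± 1.76 against 16.4 ± 1.72 CPM), but was called lower in 5 of the alternatives, among them the fit without repressor library 1. Fatty acid genes differed less, with log2 differences of -0.48 for Scd2, -0.21 for Scd1, -0.13 for Fasn and -0.07 for Acaca.

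The Hmgcs1 promoter is shown because this gene had the largest CPM difference among the mevalonate enzymes and carries the letters of a sterol response element within the window. It runs from 250 bases before to 50 after the gene start (chr13:119690101-119690400, plus strand, RefSeq on GRCm38.p6), with the match in capitals. The letters TCACNCCAC were searched on both strands, a search chosen after the values were seen. They were found in 1.22% of 27025 promoters, and in Hmgcs1 alone among the 22 members with an entry. The CCAAT box, searched the same way, was in 18 of those 22 windows and in 37.9% of all promoters. All promoters include those of genes not tested here, and the shares among tested genes were not taken. A match is a description of letters, not of binding.
Hmgcs1: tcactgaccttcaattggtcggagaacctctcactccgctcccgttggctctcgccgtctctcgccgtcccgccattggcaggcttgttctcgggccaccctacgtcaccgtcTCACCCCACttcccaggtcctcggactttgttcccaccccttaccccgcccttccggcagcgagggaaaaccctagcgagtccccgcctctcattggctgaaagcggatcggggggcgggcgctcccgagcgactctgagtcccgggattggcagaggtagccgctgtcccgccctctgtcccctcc

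Many genes of the integrated stress response were lower in the activator line as well. In this response a kinase that senses amino acid shortage or unfolded protein slows translation, and the transcription factor ATF4 switches on amino acid import, synthesis and tRNA charging. Of 37 tested members, 25 were lower, 1 was higher and 11 were not called (70.3% called, beside 21.1% of all genes), with a median log2 difference of -0.155. The control line was nearer to the repressor line in 10 of the 26 called members.

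Chac1, a glutathione-degrading enzyme and sensitive ATF4 target, had 22, 22.2 and 22.1 CPM in the activator libraries and 33.6, 33 and 33.6 CPM in the repressor libraries. The control libraries had 25.7, 27.8 and 27.8 CPM. Its log2 difference was -0.60 (SE 0.05, adjusted p 3.13e-15). Trib3, a pseudokinase that feeds back on ATF4, had 40.9, 40.2 and 40.7 against 56.5, 59.9 and 58.2 CPM (log2 -0.52, SE 0.05). The control libraries, at 43.9, 47.5 and 46.9 CPM, lay nearer to the activator line. Atf4 itself had 275 ± 1.91 against 319.6 ± 6.16 CPM (log2 -0.22).

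Among its partners, Atf3 had 3.89 ± 0.373 against 5.41 ± 0.316 CPM, and Atf5 had a log2 difference of -0.25. Amino acid enzymes and transporters were lower by smaller amounts: the log2 difference was -0.37 for Gpt2, -0.35 for Slc6a9, -0.14 for Asns and -0.13 for Slc7a5. The tRNA synthetases Gars, Cars and Aars were lower by 0.16, 0.16 and 0.14, while Nars and Wars were not called. The serine synthesis genes Phgdh, Psat1 and Shmt2 were not called either, at 348 ± 6.67 against 355 ± 1.83 CPM for Phgdh. Slc7a11, the cystine importer that NRF2 also controls, was the 1 member called higher, at 3.42 ± 0.609 against 2.27 ± 0.4 CPM. It was no longer called when activator library 2 was left out.

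Promoters of 3 members that were lower are shown because they carry the letters of the composite C/EBP-ATF site TGATGNAA, in capitals as found on either strand. Slc7a11, the 1 member called higher, carries these letters too. The search for them was also chosen after the values were seen. It found the letters in 9 of the 30 members with an entry (30%) and in 4.06% of 27025 promoters. The list holds genes of the response that ATF4 drives, so its larger share says nothing about the difference between the lines. The 27025 promoters also include those of genes not tested here. The windows are chr2:119350992-119351291 on the plus strand for Chac1, chr2:152344011-152344310 on the minus strand for Trib3 and chr6:7693160-7693459 on the minus strand for Asns (RefSeq, GRCm38.p6). The match begins 193 bases before the gene start in Chac1, 14 bases after it in Trib3 and 23 bases before it in Asns.
Chac1: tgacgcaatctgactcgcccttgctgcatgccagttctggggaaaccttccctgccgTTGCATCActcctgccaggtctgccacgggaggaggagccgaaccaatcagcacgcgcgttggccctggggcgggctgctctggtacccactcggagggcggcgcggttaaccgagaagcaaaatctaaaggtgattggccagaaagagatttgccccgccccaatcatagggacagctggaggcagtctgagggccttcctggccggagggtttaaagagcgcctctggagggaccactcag
Trib3: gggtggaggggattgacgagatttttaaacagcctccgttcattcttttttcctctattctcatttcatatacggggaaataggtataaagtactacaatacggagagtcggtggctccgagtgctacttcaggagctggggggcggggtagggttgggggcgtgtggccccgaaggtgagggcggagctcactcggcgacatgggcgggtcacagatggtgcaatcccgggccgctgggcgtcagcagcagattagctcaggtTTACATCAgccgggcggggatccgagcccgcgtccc
Asns: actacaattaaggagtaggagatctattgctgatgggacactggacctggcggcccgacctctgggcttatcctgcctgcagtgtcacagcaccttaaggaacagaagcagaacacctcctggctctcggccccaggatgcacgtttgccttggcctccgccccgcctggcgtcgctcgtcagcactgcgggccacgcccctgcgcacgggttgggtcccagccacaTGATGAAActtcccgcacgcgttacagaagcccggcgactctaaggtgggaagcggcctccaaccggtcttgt

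**Figure D3:**
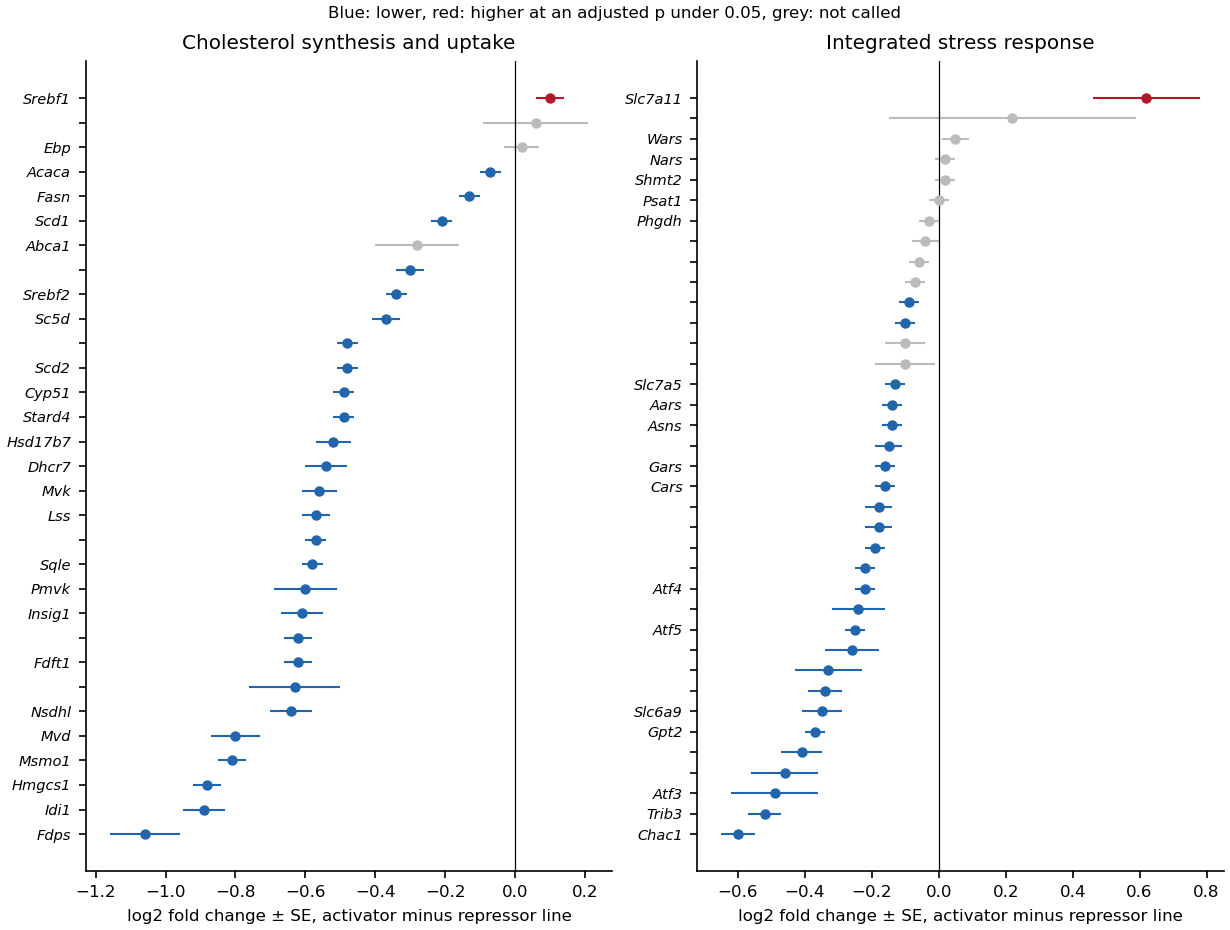
Log2 fold change ± SE (uninduced activator minus repressor line) of each tested member of 2 lists, blue where lower, red where higher and grey where not called; genes not named in the text have no label. Of the cholesterol genes 27 of 31 lie in blue, down to Fdps at -1.06, and of the stress response genes 25 of 37, down to Chac1 at -0.60.

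Immediate early and ERK feedback genes moved both ways. The kinase ERK, at the end of the growth factor cascade, induces transcription factors and also its own inhibitors of the Dusp, Spry and Spred families. Of 42 tested members 12 were higher and 12 were lower (57.1% called, beside 21.1% of all genes), with a median log2 difference of 0.051. On the higher side stood Etv4, with 61.6, 61.4 and 59.5 CPM in the activator libraries against 35.1, 35.3 and 32.1 CPM in the repressor libraries (log2 0.83, SE 0.05, adjusted p 3.56e-26). Control libraries had 40.9, 40.9 and 42.6 CPM. Etv5, its close relative, had 26.2 ± 0.176 against 16.9 ± 1.4 CPM, and Fosl1, an AP-1 subunit, had 40.9 ± 0.936 against 26.5 ± 1.69 CPM. Dusp6, the phosphatase that removes phosphate from ERK, had 101, 98 and 102 against 64.7, 69.4 and 66.1 CPM. Dusp4, Dusp5 and Myc were higher by 0.41, 0.27 and 0.30 on the log2 scale.

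On the lower side of the same list stood Spry1, with 15.8, 13.1 and 13.7 against 22.1, 22.5 and 21.8 CPM. Dusp1 and Btg2, which respond to stress as well as to growth factors, had 6.71 ± 0.481 against 9.76 ± 0.87 and 10.3 ± 0.783 against 14.6 ± 0.772 CPM. Arc had 0.87 ± 0.127 against 1.71 ± 0.205 CPM, and here the control line (0.717 CPM) lay with the activator line. Klf4, Jund and Fosl2 were lower by 0.40, 0.28 and 0.20 on the log2 scale. Phosphatases of the Dusp family were thus found on both sides.

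Most of the called matrix genes were lower, while the enzymes that cut matrix and their inhibitors were found on both sides. Fibroblasts secrete collagens, fibrillins and proteoglycans and remodel them with metalloproteinases. Of 36 matrix genes 17 were lower and 3 were higher (55.6% called, beside 21.1% of all genes), with a median of -0.09. Thbs1, the matricellular protein thrombospondin 1, had 946, 928 and 959.6 CPM in the activator libraries. In the repressor libraries it had 1597, 1551 and 1561 CPM (log2 -0.73, SE 0.03, adjusted p 6.94e-36), with the control line beside the repressor line at 1502, 1574 and 1534 CPM. Col14a1, a fibril-associated collagen, had 0.359 ± 0.141 against 1.52 ± 0.00129 CPM, with the control line at 0.542. Fmod, Fbln5 and Ogn were lower by 0.50, 0.49 and 0.47 on the log2 scale. The 3 matrix genes that were higher are Tnc, Has2 and Vcan, and the fit of the 6 libraries alone called 5. Tnc, the embryonic and wound matrix protein tenascin C, had 53.2, 48.2 and 55 against 29.3, 30.9 and 31.7 CPM. Has2, which makes hyaluronan, had 48.9 ± 1.18 against 38.1 ± 1.75 CPM, and versican (Vcan), which binds hyaluronan, had 492 ± 9.27 against 389.9 ± 1.27 CPM.

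Of 21 proteases and inhibitors, 9 were lower and 5 were higher (66.7% called, beside 11.4% lower and 9.71% higher over all genes). The aggrecanases led the lower side. Adamts5 had 240.0, 230.3 and 233 CPM in the activator libraries against 443, 440.3 and 439 CPM in the repressor libraries (log2 -0.91, SE 0.03, adjusted p 5.36e-46). Adamts1 had 88.5 ± 3.54 against 163 ± 4.36 CPM and Adamts4 had 4.15 ± 0.313 against 6.05 ± 0.315 CPM. For these 3 genes the control line lay near the repressor line, at 451, 161 and 5.51 CPM. The higher side held a gene of the plasminogen system and a metalloproteinase inhibitor. Plaur, the urokinase receptor, had 73.6 ± 0.448 against 53.3 ± 0.973 CPM. Timp1 had 54, 55.5 and 56.7 against 35.4, 32.6 and 34 CPM, while Timp3 was lower at 957 ± 13.7 against 1139 ± 26.1 CPM.

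Contractile genes and targets of the mechanosensitive factor YAP were mostly on the lower side, 10 of 18 against 2 higher (66.7% called). Over all genes 11.4% were lower and 9.71% were higher, so the higher side was near that share. Acta2, smooth muscle actin and the mark of myofibroblasts, had 369, 351 and 368 against 509, 504 and 505 CPM (log2 -0.48, SE 0.03). Tagln, another smooth muscle gene, had 79.6 ± 0.349 against 94.3 ± 4.37 CPM. The 2 that were higher are Ankrd1 and Ccn2. Ankrd1, a direct YAP target, had 60.1, 57.7 and 59.3 against 37.1, 38.2 and 37.8 CPM. Ccn2 had 141 ± 10.1 against 125 ± 2.31 CPM (adjusted p 0.0411), a call that was lost in 5 of the 6 fits without 1 library, all but the one without activator library 1. Amotl2, Lats2 and Ccn1, also known YAP targets, were lower by 0.25, 0.15 and 0.13.

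In the WNT pathway, in which secreted ligands act through Frizzled receptors on TCF factors, 17 of 30 tested members were lower and 2 were higher (63.3% called, beside 21.1% of all genes). The median was -0.249. Among ligands and their helpers, Wnt9a had 4.74 ± 0.417 against 7.11 ± 0.152 CPM, and Rspo3 and Rspo1, which amplify the signal, were lower by 0.52 and 0.50 on the log2 scale. Wnt4 and Wnt5a were lower by 0.40 and 0.32. Of the receptors, Fzd2 had 79.2 ± 2.82 against 107 ± 3.59 CPM, and Fzd4, Fzd5, Fzd1 and Fzd7 were lower by between 0.19 and 0.35. The secreted inhibitors Sfrp2 and Sfrp1 were lower by 0.45 and 0.39, so agonists and antagonists were both lower. At the nuclear end the TCF genes split: Tcf7l1 and Tcf7l2 were lower by 0.38 and 0.35, while Tcf7 was higher at 7.11 ± 0.217 against 4.92 ± 0.381 CPM. Ror1, a WNT5A co-receptor, was the second gene that was higher, at 13.9 ± 1.14 against 10.2 ± 1.01 CPM.

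Notch and Hedgehog genes had 10 lower and 0 higher members among 22 (45.5% called, beside 11.4% lower and 9.71% higher over all genes). Notch signals between touching cells, and Hedgehog ligands act through Ptch1 and Smo on the Gli factors. Jag1, a Notch ligand, had 77.3, 84.6 and 78.9 CPM in the activator libraries against 123, 119 and 110.4 CPM in the repressor libraries (log2 -0.55, SE 0.04). Notch3 had 3.33, 3.06 and 2.73 against 5.58, 4.69 and 6.73 CPM. In the Hedgehog branch, the co-receptors Gas1, Cdon and Boc were lower by 0.55, 0.47 and 0.31, and Ptch1 and Smo by 0.37 and 0.15. Gli1, the transcriptional readout of the pathway, had 3.67 ± 0.21 against 5.72 ± 0.137 CPM. Gli2 and Gli3 were lower by 0.49 and 0.13. Notch2 and Sufu, the inhibitor that binds Gli factors, were not called, at 268 ± 3.75 against 277 ± 3.64 and 60.1 ± 0.416 against 60.3 ± 2.49 CPM.

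Growth factors and receptor tyrosine kinases had 20 lower and 6 higher of 52 (50% called, beside 21.1% of all genes), with a median of -0.174. Gas6, the ligand of TAM receptors, had 47.5, 45.8 and 44.8 against 75.5, 78.6 and 79 CPM (log2 -0.75, SE 0.04). Igf1, Pdgfrb, Csf1 and Fgfr2 were lower by 0.42, 0.39, 0.35 and 0.35 on the log2 scale, and Fgf9 had 0.821 ± 0.0418 against 2.02 ± 0.392 CPM. Ligands led the higher side. Hbegf, an EGF receptor ligand, had 27.1 ± 1.13 against 19 ± 0.559 CPM, and Fgf2 had 22 ± 0.753 against 17.5 ± 1.32 CPM. Hgf, at 0.651 ± 0.221 against 0.158 ± 0.0954 CPM, rested on 42 counts against 10. Igf2 and Igfbp4 were higher by 0.17 and 0.26.

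TGF-beta and BMP genes had 8 lower and 3 higher of 32 (34.4% called, beside 21.1% of all genes). The higher side was near the 9.71% of all genes, while 11.4% of all genes were lower. The isoforms of the ligand split: Tgfb2 had 48.4, 47.4 and 47.1 against 70.8, 75.9 and 78.6 CPM, and Tgfb1 was higher at 33 ± 0.939 against 26.4 ± 0.657 CPM. Bmp4 had 45.9 ± 2.43 against 66.1 ± 1.48 CPM. The type I receptor Tgfbr1 and the transducer Smad3 were not called, at 53 ± 2.09 against 52.3 ± 1.75 and 87.3 ± 2.11 against 88.6 ± 2.41 CPM. Guidance molecules of the ephrin, semaphorin and plexin families had 17 lower and 5 higher of 50 (44% called). Their higher side, too, was near the 9.71% of all genes. Sema6c and Ntn4 were lower by 0.78 and 0.73, and Efnb2 and Sema5a were both higher by 0.38.

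Inflammatory genes were also divided. Of 29 NF-kB targets and chemokines 13 were lower and 6 were higher (65.5% called, beside 21.1% of all genes). Cxcl1, a neutrophil chemokine, had 13.3, 12.9 and 15.4 against 20.9, 21.5 and 24.1 CPM, and Csf3, Ccl7 and Ccl2 were lower by 0.60, 0.53 and 0.45 on the log2 scale. Nfkb1 and Nfkbia, the p50 precursor and the inhibitor IkB alpha, were lower by 0.22 and 0.27. Il1rl1, the IL-33 receptor, was higher at 3.67 ± 0.408 against 1.37 ± 0.171 CPM, and Ptgs2, which encodes COX-2, at 34.5, 37.2 and 37 against 24.4, 24.9 and 25.4 CPM. Interferon and antigen presentation genes had 8 lower and 1 higher of 30 (30% called), and 5 lower without repressor library 2. Stat2 had 14.7 ± 0.659 against 19.9 ± 1.24 CPM and Dtx3l had 3.75 ± 0.457 against 5.72 ± 0.763 CPM. The higher gene, H2-K1, at 1.14 ± 0.19 against 0.546 ± 0.102 CPM, has near-identical relatives and its count is uncertain. It was no longer called when repressor library 2 was left out.

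Genes of oxidative defence were more often higher than lower. The transcription factor NRF2 switches on glutathione and thioredoxin enzymes. Of 42 tested members 14 were higher and 5 lower (45.2% called, beside 21.1% of all genes). The higher count was 8 with DESeq2, 9 without activator library 1 and 8 without activator library 2. The lower count was 2 without repressor library 3 or activator library 2. Srxn1, which repairs oxidised peroxiredoxin, had 69.9 ± 2.04 against 56.3 ± 0.702 CPM, Gss, glutathione synthetase, had 29.5 ± 0.723 against 23.8 ± 1.03 CPM, and Txnrd1, thioredoxin reductase, had 496 ± 4.27 against 423 ± 4.44 CPM. Aldh1a1, which oxidises retinaldehyde, was lower at 40.7 ± 0.705 against 53.8 ± 1.43 CPM, as was Dhrs3 above. In glycolysis and hypoxia 13 of 35 were lower and 2 higher (42.9% called), or 1 higher without activator library 1. Arnt2 and Bnip3 were lower by 0.70 and 0.50, Tpi1 by 0.19 and Gapdh by 0.11.

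Ribosomal protein genes were called in 1 direction and by small amounts. Of 84 cytosolic ribosomal protein genes 31 were higher (36.9%, beside 9.71% of all genes) and 0 were lower, the median was 0.086 and the largest log2 difference was 0.24, for Rps12. A log2 difference above 0 was found for 79 of the 84. A fit of the 6 libraries alone called 53 higher. Many of these genes have pseudogene copies that may take or lend reads. Nuclear genes of oxidative phosphorylation had 8 higher and 1 lower of 86 (10.5% called, beside 21.1% of all genes). Those counts became 5 and 0 with DESeq2 or without repressor library 2, repressor library 3 or activator library 3, and 4 and 0 without activator library 1. The 24 tested mitochondrially encoded genes had none called in the edgeR fit described here, and 1 with the filter at a mean of 1 CPM. Before adjustment, 6 had a p under 0.05. Of the mitochondrially encoded genes, 6 were called in the fit of the 6 libraries alone, 5 with limma-voom and 3 with DESeq2, in both directions.

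G1/S and replication genes had 3 higher and 3 lower of 44 (13.6% called), and G2/M genes 3 and 4 of 36 (19.4%), beside 21.1% of all genes. The higher count was 1 for G1/S without repressor library 3, and 1 for G2/M without repressor library 1, repressor library 3, activator library 1 or activator library 2. Of 64 replication-dependent histone genes 1 was called, between 0 and 4 of them when single libraries were left out. Of 348 Zfp zinc finger genes 16 were higher and 23 lower (11.2% called), with 10, 8 and 7 higher without repressor library 1, repressor library 2 and activator library 1. Among 54 heterochromatin and DNA methylation factors, 6 were higher and 9 were lower (27.8% called). Those counts fell to between 3 and 5 when single libraries were left out, with the higher side at 3 without repressor library 3, activator library 1 or activator library 2, and the lower side between 3 and 5 without any 1 of the 6. Among these, Setdb2 had 19.8 ± 1.24 against 16.7 ± 0.426 CPM. Cdkn2a, which is often lost when MEFs are immortalised, was present and not called, at 65 ± 0.834 against 64 ± 1.03 CPM. Trp53 was 205 ± 1.79 against 194 ± 5.75 CPM (adjusted p 0.0458), a call lost in 8 of the alternatives, 5 of them fits without 1 library.

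**Figure D4:**
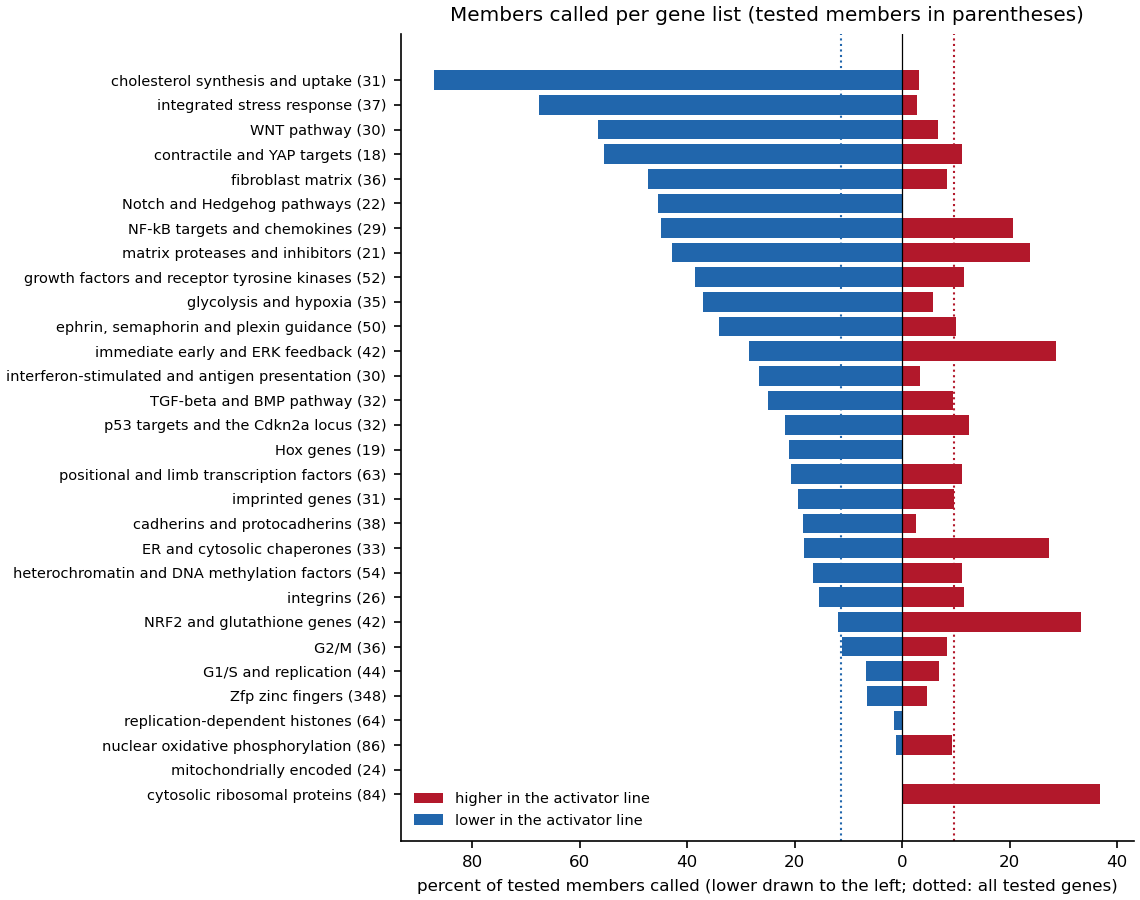
Percent of tested members called lower (blue, to the left) and higher (red, to the right) in the activator line for each list with at least 18 tested members; dotted lines are the percent over all tested genes, 11.4 and 9.71. Cholesterol synthesis reaches furthest to the left (27 of 31), and ribosomal proteins (31 of 84) reach far to the right.

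Transcription factors of position and limb patterning had 13 lower and 7 higher of 63 (31.7% called, beside 21.1% of all genes), or 4 higher without repressor library 2 or activator library 3. Sox11 was lower by 0.51, and Sox9 and Dlx2 were higher by 0.97 and 0.45. Of 19 tested Hox genes 4 were lower and none was higher, Hoxb9 by 0.42, and the share called, 21.1%, is that of all genes. That count was 2 with DESeq2 and without repressor library 2, activator library 1 or activator library 2. Imprinted genes had 6 lower and 3 higher of 31 (29% called, beside 11.4% lower and 9.71% higher over all genes), with 3 lower without activator library 1 and 1 higher without activator library 3. Peg3 and Peg10 had 151 ± 6.43 against 179 ± 6.43 and 225 ± 4.58 against 271 ± 6.16 CPM. Ddx4, the germ-cell helicase VASA, was the 1 called gene of 8 tested germline and 2-cell-stage genes, at 3.37 ± 0.34 against 1.19 ± 0.089 CPM.

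The libraries expressed most of the markers of the labelled cell type. The 12 fibroblast markers summed to between 20760 and 21038 CPM in the activator and between 21976 and 22442 CPM in the repressor libraries. Thy1 and Lum were at or near 0 in both. Of the 10 tested, 7 were lower in the activator line and 0 were higher, beside 11.4% lower and 9.71% higher over all genes. Among the 7 was Pdgfrb at 124 ± 4.36 against 163 ± 4.35 CPM, and for 2 of the 7 the control line was nearer to the repressor line. In bulk RNA, fewer cells of a type and less RNA per cell cannot be told apart. Summed markers of other types, as ranges over libraries, were 0.486 to 0.785 against 0.685 to 1.47 CPM for 8 of endothelium, 7.47 to 8.81 against 7 to 8.36 for 8 of macrophages and blood, and 3.56 to 4.01 against 3.85 to 4.55 for 9 of epithelium. They were 8.47 to 10.5 against 6.75 to 6.78 CPM for 9 of muscle, 35.8 to 38.3 against 35 to 37.7 for 9 of neural cells and glia, 131 to 135 against 151 to 156 for 8 of adipocytes, and 2.19 to 2.41 against 1.91 to 3.26 for 8 of pluripotent cells. Single genes made up most of several sums, namely Tubb3 (33.7 to 35.3 CPM in the activator libraries), Lpl (130.2 to 135), Tnnt2 (5.87 to 7.53), Cd68 (3.87 to 5.28), Csf1r (2.83 to 3.1), Krt14 (2.65 to 3.46) and Lin28a (1.46 to 1.64). Of the markers of these 7 types, Tnnt2 was called higher, and Lpl and Lyz2 were called lower, Lyz2 on 1 count against 13 and not without activator library 1. Emcn, Adgre1, Epcam, Myod1 and Pou5f1 had no count in any of the 6 libraries. The 11 cartilage and bone markers summed to between 286 and 306 CPM in the activator libraries and between 149.9 and 154 in the repressor libraries. Most of that difference was Spp1, while Acan and Ibsp had no count in either line. Mgp, which differed in the same direction (1.66 ± 0.949 against 0.392 ± 0.301 CPM), was not called without activator library 1. Whether a few cells of another type account for any of these values was not tested.

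The difference was spread over the genome. Chromosome medians lay between -0.049 for chromosome 6 and 0.027 for chromosome 14, leaving aside Y with 10 tested genes and the mitochondrial genome. The share of genes called ran from 16.1% on chromosome 12 to 28.9% on chromosome 15. The 2 directions were not equally divided on every chromosome, beside 1574 higher and 1853 lower over all genes. Chromosome 6 had 42 higher and 146 lower genes, X had 31 and 89, and chromosome 15 had 54 and 112. The other way, chromosome 19 had 76 higher and 49 lower. Neighbouring genes are not independent, and these counts were not tested. In 264 windows of 10 Mb with at least 10 tested genes, the median log2 difference lay between -0.216, on chromosome 16 from 70 to 80 Mb, and 0.203, on chromosome 14 from 0 to 10 Mb. No window median reached the size of a 1.5-fold difference.

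Beside the control line, the activator line was more often the one that stood apart. On log2(CPM + 0.1), the control mean was nearer to the repressor line in 1265 of the 1574 genes called higher and in 1528 of the 1853 called lower. For the at least 2-fold genes it was nearer to the repressor line in 41 of 64 and 44 of 67. These are positions only, with no test. Among lists, cholesterol synthesis (27 of 28 called members), ribosomal proteins (31 of 31) and WNT genes (17 of 19) placed the control line nearer to the repressor line, and the stress response (10 of 26) placed it nearer to the activator line.

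The same pair of lines was also compared after induction, in the same fit of all 18 libraries. The group means came from other libraries, but both comparisons share the low-count filter and the estimate of the spread. Dose, time and the induced effector all differ between the induced groups. Of the tested genes 75.4% were called there, 37.3% higher and 38.1% lower in the activator line. Against that background, 68 of the 131 genes at least 2-fold apart before induction were called the same way after it, 23 were called the opposite way and 40 were not called. Of those higher before induction, 40 of 64 were higher and 5 were lower after it. Of those lower before, 28 of 67 were lower and 18 were higher. The induced libraries helped to choose these genes, since 35 of the 131 would not pass the low-count filter on the 6 uninduced libraries alone, and a gene that entered through the induced libraries of one line had to differ there. Of the 46 higher and 50 lower genes that would pass, in a count added after seeing the data, 24 and 25 were called the same way and 5 and 8 the opposite way. Spp1 stayed higher, at 137 CPM in the induced activator against 43.1 CPM in the induced repressor libraries, and Cemip stayed lower at 34.9 against 141 CPM. Hmga2 turned, from 575 against 305 CPM before induction to 165 against 274 CPM after it. Dusp6 turned as well, with 26.2 against 86 CPM after induction. Of the cholesterol genes, 21 of 31 were lower and 5 higher after induction.

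**Figure D5:**
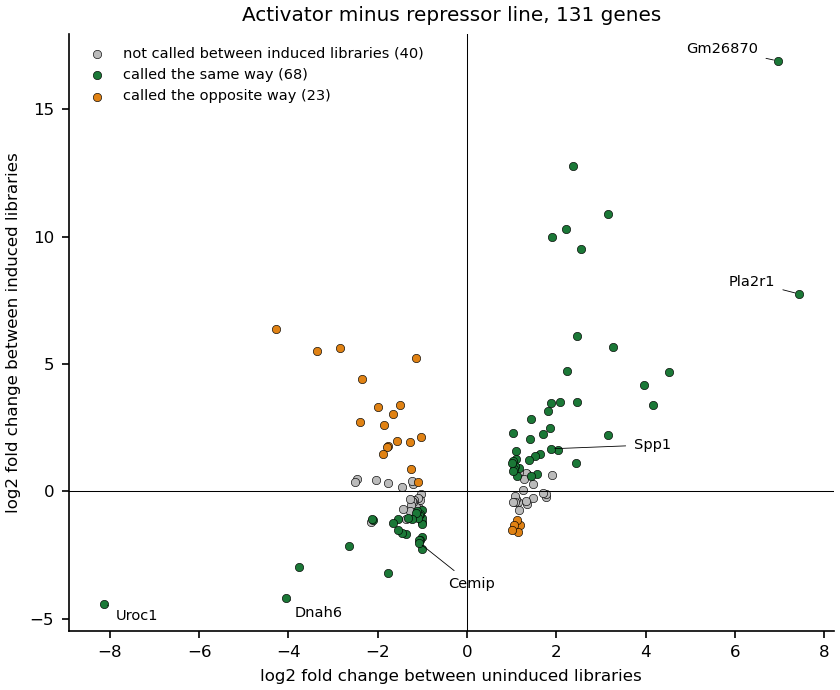
Log2 fold change (activator minus repressor line) between induced libraries against that between uninduced libraries, for the 131 genes called at least 2-fold apart before induction. Of these, 68 were called the same way, 23 the opposite way (top left and bottom right) and 40 were not called between the induced libraries.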

How the data were processed

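RNA was sequenced as total RNA with a stranded, rRNA-depleted library of paired 150-base reads, per the labels' protocols. The authors deposited whole-number counts per gene for 18 libraries. The genome build is mm10, per the submitters' processing notes; which aligner, counter, annotation and strand option were used is not given in the sources used here, so antisense and overlapping genes cannot be separated with certainty. Groups were taken from the labels, and the members and lists were chosen with earlier results of these data known. Of 47937 gene IDs, 47310 were found in GENCODE M21.

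From the counts, edgeR 4.0.16 (R 4.3.3; TMM scaling, filterByExpr, robust quasi-likelihood fit, 1 coefficient per group over all 18 libraries, 12 residual degrees of freedom) tested 16216 genes, with Benjamini-Hochberg adjustment at 0.05. Called means past that threshold, and every adjusted p in the text is from this test. CPM use TMM library sizes. Models covered to at least 50% by 15-base words of Gm26870 were summed as satellite. Named genes were the 10 per direction with the largest fold at a mean of at least 5 CPM in the higher line and no overlap (clone-like symbols left out), the 4 per direction with the largest CPM difference, up to 3 per direction of each list at a mean of 1 CPM or more, up to 4 per direction with no count in one line, the satellite models, Rela, Trp53 and Cdkn2a. Some genes that the rule names are not reported here. The other genes named, list members chosen to show each role, were picked after their values were seen. DESeq2 1.42.0, limma 3.58.1 (voom), other scalings and filters, and fits without each library were alternatives. The pipeline was tested on simulated data.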

Additional observations from a re-analysis of the deposited data

Results flagged for a closer look

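Of the 131 genes at least 2-fold apart before induction, 23 were called the opposite way between the induced libraries of the same lines. They were chosen for opposite calls, so an interaction test, added after seeing the data, gives no further support, and the difference was not tested in other libraries. Of the 23, 10 would not pass the low-count filter on the 6 uninduced libraries alone and entered through other libraries, so their direction after induction is no result. Of the 13 that would pass, 5 went from higher to lower and 8 from lower to higher. Tmem171 and Pkhd1l1 are among these. The lines were induced with different doses for different times, so dose, time and effector cannot be told apart.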

How the results depend on the processing

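No called gene named here changed sign in these alternatives. With total counts only, 1621 genes were higher and 1553 lower, so the larger side changed. List medians near 0 changed sign. The mitochondrially encoded one went from 0.024 to as low as -0.023, and the germline one from -0.02 to as high as 0.058. Those of G1/S and G2/M genes changed sign within 0.012 of 0. The histone median, -0.029 in the edgeR fit described here, changed sign as well. Without a change of sign, the germline median was -0.151 when repressor library 1 was left out. The counts of genes at least 2-fold higher and lower, 64 and 67, became 24 and 13 with DESeq2 and 19 and 18 with a filter at a mean of 1 CPM. The 68 genes called the same way after induction became 25 and 24. The filter removes low genes by construction, and the cause for DESeq2 was not tested. Leaving out 1 library gave 1180 to 1361 genes higher, 1471 to 1652 lower, 49 to 62 and 53 to 67 at least 2-fold, 53 to 59 called the same way after induction, and 2.34 to 2.46 for the satellite sum. Replicate numbers did not pair the libraries: deviations of same-numbered libraries correlated at -0.094, -0.028 and 0.05 over 9078 genes. With a replicate block on the 6 libraries, 1854 genes were higher and 2099 lower, against 1882 and 2129 without it. At least 2-fold were 50 and 50, against 49 and 51. A description of promoter CpG content was not made, because 63.4% of the tested genes had a promoter entry. Genes under 1 CPM rest on few counts, which limits the size of their differences.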
